A study of Mus musculus with 16 samples.

Results

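The ERK feedback genes described here were 10 genes taken by name, namely the Sprouty genes SPRY1, SPRY2 and SPRY4, the Sprouty relative SPRED1, the phosphatases DUSP4 and DUSP6, the ETS factors ETV4 and ETV5, the zinc finger factor EGR1 and the AP-1 component FOSL1. Every probe whose target name equals one of these symbols was taken, which gave 14 of 45281 probes, for 8 of the 10 genes. SPRY1 and FOSL1 were not analysed here. The study kept mouse embryonic stem (ES) cells on PA6, a bone marrow stromal line of the mouse, in medium free of serum, with PA6 alone kept in parallel. On day 7 the RNA of each culture went onto 1 Illumina MouseWG-6 v2.0 array. Co-cultures of ES and PA6 cells gave 2 arrays without factors (-GFs), 3 with FGF2 (20 ng/ml) and 2 with BMP4 (10 ng/ml per the labels, a lower dose per the methods). PA6 alone gave 3 arrays for each of these conditions.

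Per the labels and methods, the factor was present for the first 3 days and then withdrawn, so the arrays show levels after a factor-free interval and not the immediate answer. The ES cells of all co-cultures were of a single knock-in line carrying a green fluorescent protein at the tau locus, and every co-culture contained PA6 cells too. Fewer cells of a type and less RNA per cell cannot be told apart in such bulk RNA. The labels speak of biological replicates with 1 well per condition in each, but do not tie the replicate numbers to them, so fits with the number as a block are given where they change a member's call. How far the replicates were separate preparations of cells is not stated, and p-values measure the spread between these arrays.

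Fibroblast growth factors bind receptor tyrosine kinases that, through the adaptor FRS2 and RAS, switch on the kinases RAF, MEK and ERK. ERK activity raises transcription of immediate early genes such as EGR1 and FOSL1 and of the ETS factors ETV4 and ETV5. It also raises the cascade's own brakes, since Sprouty and SPRED proteins restrain the path from receptor to RAF, and DUSP6 and DUSP4 remove phosphates from ERK. In embryonic tissue ETV4, ETV5, DUSP6 and the Sprouty genes are commonly read as targets of FGF, and in ES cells FGF4 made by the cells themselves is a main source of ERK activity.

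Arrays detected 37.3% to 47% of probes at a detection p under 0.05, which compares a probe with negative control beads. No 2 arrays were identical. Within groups the SD of a gene had a median of 0.27 in co-cultures and 0.24 in PA6 (log2 scale). Levels below are normalized log2 intensities of a probe, which can be set against the same probe on other arrays but not against another gene. The tested neural markers, 7 in number, were all detected on each co-culture array and on no PA6 array. The 10 stromal markers averaged 12.53 to 13.10 in PA6 and 10.77 to 11.42 in co-cultures, with 9 or 10 detected on every array. Of 10 pluripotency markers, 2 to 4 were detected on each PA6 array and 9 or 10 on each co-culture array.

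The members fell into genes carried by both kinds of culture and genes near background in stroma. SPRED1, DUSP4, DUSP6 and EGR1 were detected on all 16 arrays. ETV5 was detected on 13 arrays, all 7 co-cultures among them, and ETV4 on 8, of which 7 were co-cultures. SPRY4 was detected on 8 arrays and entered the tests only because all 3 FGF2 co-cultures passed detection. SPRY2 was not well above background on any of the 16 arrays, its lowest detection p being 0.0833. A gene was tested when 1 of its probes was detected on every array of at least 1 group, which left 7 members among 14829 genes. A member was called when the Benjamini-Hochberg adjusted p of limma over all 14829 genes was under 0.1 and the log2 fold change was over 1 in size.

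**Figure D1:**
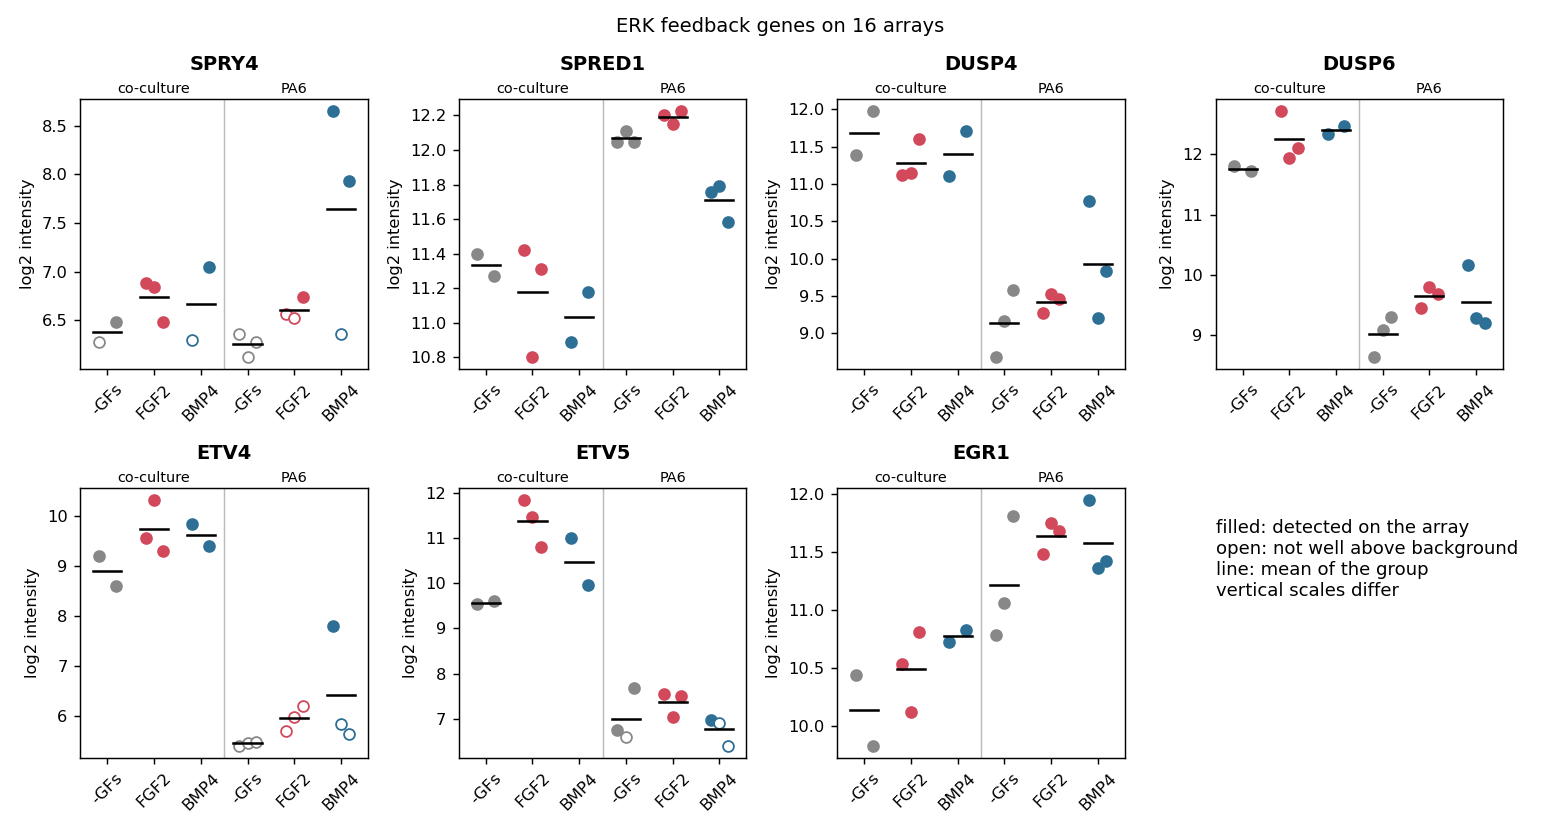
Normalized log2 intensity (vertical axis) of the 7 tested ERK feedback genes in 6 groups of cultures (horizontal axis). Each point is 1 array, open where the probe was not well above background, and the line is the mean of the group. DUSP4, DUSP6, ETV4 and ETV5 lay higher in co-cultures than in PA6 in each condition, SPRED1 and EGR1 lay lower, and the 3 ETV5 values with FGF2 lay above both values without factors in co-cultures.

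The first question was whether co-cultures that had received FGF2 still carried more of these transcripts than co-cultures without factors. ETV5 did: it rose 3.48-fold, and it was the 1 member called of 7 tested. Over all genes 7.42% were called in this comparison. The 7 members included SPRY4, which entered the tests through its FGF2 arrays. The 2 arrays without factors read 9.54 and 9.61 for ETV5, an ETS factor that acts in self-renewal and in branching organs. The 3 arrays with FGF2 read 11.84, 11.47 and 10.80, all above both controls. The log2 fold change was 1.80 ± 0.39 (SE; limma adjusted p = 0.0428), with means of 9.57 ± 0.05 (SD, n = 2) and 11.37 ± 0.53 (SD, n = 3). The second ETV5 probe read 9.59 and 9.20 without factors and 11.48, 10.72 and 10.47 with FGF2, a change of 1.5 ± 0.40 (limma adjusted p = 0.0830 over all probes), so both probes passed. The call rested on few arrays. Leaving out -GFs replicate 1 gave 1.76 (limma adjusted p = 0.185), -GFs replicate 2 gave 1.83 (0.153) and FGF2 replicate 2 gave 1.75 (0.111), with a lone -GFs array assumed to vary like the other groups.

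Markers of undifferentiated cells moved with ETV5. Of 10 pluripotency markers tested, 8 were called higher with FGF2 in co-cultures, and the mean of the list was 9.27 to 9.33 without factors, 11.45 to 11.84 with FGF2 and 10.14 to 11.07 with BMP4. Of 7 neural markers, 2 were called lower with FGF2. Endothelial markers moved too: the mean of 5 tested markers was 6.66 to 6.86 without factors, 8.22 to 9.05 with FGF2 (2 of 5 called higher) and 8.14 to 9.05 with BMP4 (2 of 5). That of 5 epidermal markers was 6.02 to 6.12 without factors, 6.29 to 6.88 with FGF2 (1 of 5) and 9.98 to 10.73 with BMP4 (4 of 5). Of 3 blood cell markers 1 was called higher with FGF2. The part of these cells in the ETV5 value was not tested. By a rule set for likeness (Pearson correlation over 16 arrays of deviations from the mean of the array's culture kind), the genes closest to ETV5 were KLB, a co-receptor of endocrine FGFs (r = 0.91), UTF1, a transcription factor of undifferentiated ES cells (0.90), and KLF2, a Kruppel-like factor active in such cells (0.89). In the 7 co-culture arrays alone these r were 0.97, 0.97 and 0.94, and in the 9 PA6 arrays 0.75, 0.65 and 0.70. The arrays share culture runs and normalization, so these values are a description.

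ETV4, the close relative of ETV5, read 9.21 and 8.61 without factors and 9.57, 10.33 and 9.31 with FGF2 in co-cultures. The 3 values with FGF2 exceeded both others, but the change of 0.83 ± 0.35 did not pass (limma adjusted p = 0.213). DUSP6, the cytoplasmic phosphatase of ERK, read 11.80 and 11.71 without factors and 12.71, 11.93 and 12.10 with FGF2. These groups did not overlap either, and the change was 0.49 ± 0.25 (limma adjusted p = 0.304). The other DUSP6 probes gave 0.30 ± 0.30 and 0.22 ± 0.47, with groups that overlapped. DUSP4, its nuclear relative, read 11.39 and 11.97 without factors and 11.12, 11.14 and 11.60 with FGF2, so the groups overlapped and the change was -0.39 ± 0.28 (limma adjusted p = 0.470). The other detected DUSP4 probes showed no fall, with 0.02 ± 0.19 and 0.05 ± 0.25. EGR1 with 0.35 ± 0.27, SPRY4 with 0.36 ± 0.26 and SPRED1 with -0.15 ± 0.23 did not pass (limma adjusted p of 0.500, 0.483 and 0.756). Of all genes 17.6% were higher with FGF2 with no overlap between the groups. No count of members without overlap and no median over the members is given for this contrast, since SPRY4 was tested through its FGF2 arrays. The 95% intervals of DUSP6 (-0.10 to 1.08), EGR1 (-0.28 to 0.99) and SPRY4 (-0.26 to 0.97) do not show that these genes stayed level.

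Co-cultures with BMP4 gave no call among the members (0 of 7 by limma, against 3.75% of all genes, and 14.9% of all genes at an unadjusted p under 0.05). No member was under an unadjusted p of 0.05 either. ETV5 read 10.99 and 9.96 with BMP4, both above the values without factors, and its change was 0.91 ± 0.42 (limma adjusted p = 0.389). That change ran from 0.39 to 1.42 when 1 array was left out. DUSP6 read 12.32 and 12.46, again above both controls, with a change of 0.64 ± 0.28 (limma adjusted p = 0.343). EGR1 read 10.72 and 10.83 against 10.44 and 9.83, a change of 0.64 ± 0.30 (limma adjusted p = 0.383), and ETV4 changed by 0.72 ± 0.38 (0.455). Groups did not overlap and BMP4 was higher for 4 of 7 members (22.8% of all genes) and lower for 1 of 7, SPRED1 (23.3%). SPRED1 changed by -0.30 ± 0.26 (limma adjusted p = 0.688), DUSP4 by -0.27 ± 0.31 (0.784) and SPRY4 by 0.29 ± 0.29 (0.742). The direction of DUSP4 turned without -GFs replicate 2 or BMP4 replicate 1 (0.02 each), and that of SPRY4 without BMP4 replicate 2 (-0.08). Between BMP4 and FGF2 in co-cultures no member was called (0 of 7 by limma, against 1.44% of all genes, and 14.2% at an unadjusted p under 0.05). The widest difference there was that of ETV5, lower with BMP4 by -0.89 ± 0.39 (limma adjusted p = 0.365).

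The same comparison in PA6 mono-cultures asked whether stroma alone still answered FGF2. No member was called (0 of 7 by limma, against 0.027% of all genes, of which 10.4% were under an unadjusted p of 0.05), and 1 of the 7, DUSP6, was under an unadjusted p of 0.05. DUSP6 read 8.65, 9.09 and 9.31 without factors and 9.45, 9.81 and 9.68 with FGF2. All 3 values with FGF2 exceeded all 3 without, and the change was 0.63 ± 0.27 (limma adjusted p = 0.477). A further DUSP6 probe had read 5.81, 7.15 and 6.39 without factors and 6.44, 8.0 and 6.81 with FGF2, so its groups overlapped. The remaining DUSP6 probe gave -0.24 ± 0.44 and was not well above background on any FGF2 array. SPRED1 read 12.05, 12.11 and 12.04 without factors and 12.20, 12.15 and 12.22 with FGF2, a change of 0.12 ± 0.11 (limma adjusted p = 0.711). EGR1 read 10.79, 11.06 and 11.81 against 11.49, 11.75 and 11.68, a change of 0.42 ± 0.27 (limma adjusted p = 0.605). DUSP4 changed by 0.28 ± 0.37 (limma adjusted p = 0.816) and ETV5 by 0.37 ± 0.30 (0.683), while the second ETV5 probe gave -0.05 ± 0.39. ETV4 was not well above background on any of these 6 arrays, and SPRY4 was detected on 1 of them, so no fold is given for either. On their tested probes both DUSP6 and SPRED1 were thus higher with no overlap, as were 8.18% of all genes.

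**Figure D2:**
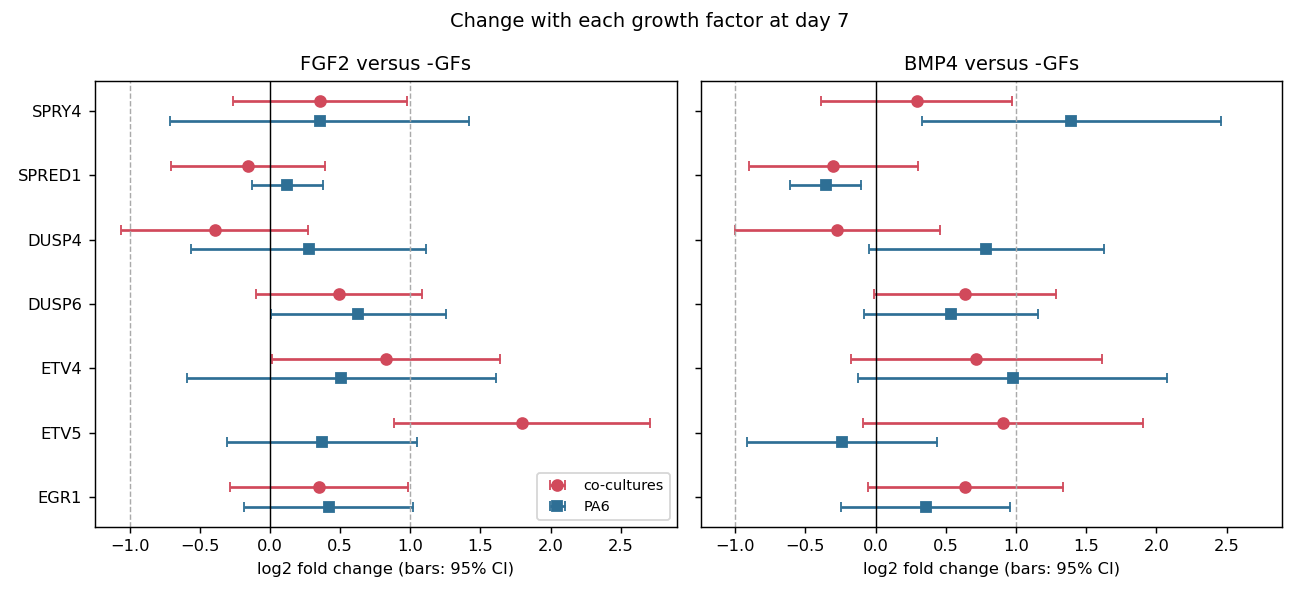
Log2 fold change (horizontal axis) of each tested member with FGF2 (left) or BMP4 (right) against -GFs, in co-cultures (circles) and PA6 (squares), with 95% confidence intervals of limma and dashed lines at the fold limit. The interval of ETV5 with FGF2 in co-cultures lies above 0.88 and its change is the 1 called. The PA6 values of ETV4 and SPRY4 rest largely on arrays where the probe was not well above background.

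The answers of both kinds of culture to FGF2 were then set against each other in 1 model of 16 arrays. For ETV5 the rise in co-cultures exceeded that in PA6 by 1.43 ± 0.51 (95% interval 0.32 to 2.54), which did not pass after adjustment (limma adjusted p = 0.121). It was under the limit in 4 of the alternative settings and in 3 of the fits that left out 1 array, with adjusted p from 0.0281 to 0.0945. One of these settings had the replicate number as a block (1.72, limma adjusted p = 0.0675). No member was called for this difference (0 of 7 by limma, against 7.9% of all genes, and 21.8% at an unadjusted p under 0.05). For DUSP6 the difference was -0.14 ± 0.40 with an interval of -1.0 to 0.72, for EGR1 -0.07 ± 0.40 (-0.93 to 0.80) and for DUSP4 -0.67 ± 0.52 (-1.78 to 0.44). These intervals are wide, and the arrays do not show that both cultures answered alike. The other detected probes gave differences of 0.30 ± 0.67 and -0.03 ± 0.69 for DUSP4 and of -0.33 ± 0.64 and 0.46 ± 0.70 for DUSP6.

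With BMP4, PA6 cultures were uneven between replicates. SPRY4, a Sprouty gene induced by FGF in many tissues, was not well above background in any PA6 array without factors (6.36, 6.13 and 6.28). With BMP4 it read 8.65, 6.36 and 7.94, detected on replicates 1 and 3. The group was at least 1.94-fold above the detection level of the controls, and the measured change of 1.39 ± 0.47 did not pass (limma adjusted p = 0.532). Without BMP4 replicate 2 the change was 2.04 and the call was made (limma adjusted p = 0.0676). No member was called with all arrays (0 of 7 by limma, against 0% of all genes, of which 9% were under an unadjusted p of 0.05), and 2 of the 7, SPRY4 and SPRED1, were under an unadjusted p of 0.05. With no overlap between groups, 6.23% of all genes were higher with BMP4 and 8.71% lower, and none of the 4 members detected on every array was higher while SPRED1 was lower.

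DUSP4 followed the same order of arrays. It read 8.69, 9.17 and 9.58 without factors and 10.77, 9.21 and 9.83 with BMP4, a change of 0.79 ± 0.37 (limma adjusted p = 0.564). A second DUSP4 probe read 8.56, 8.49 and 8.84 against 11.33, 8.71 and 9.60, a change of 1.25 ± 0.54, and one more read 9.62, 7.36 and 8.52 with BMP4, a change of 1.57 ± 0.53 (limma adjusted p of 0.552 and 0.525 over all probes). On the 3 detected probes BMP4 replicate 1 was highest, replicate 3 next and replicate 2 lowest. ETV4 was detected in PA6 only in BMP4 replicate 1, at 7.79, and read 5.82 and 5.63 in the other two. DUSP6 was also highest in replicate 1, with 10.17, 9.28 and 9.21, and changed by 0.54 ± 0.27 (limma adjusted p = 0.591).

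SPRED1, which restrains the step from RAS to RAF, went the other way. Its BMP4 arrays read 11.76, 11.79 and 11.58, all below the 3 controls, a change of -0.36 ± 0.11 (limma adjusted p = 0.532). Against FGF2 it was lower by -0.48 ± 0.11 (unadjusted p = 0.00202, limma adjusted p = 0.196), again with no overlap. Between BMP4 and FGF2 in PA6 no member was called (0 of 7 by limma, against 0.31% of all genes, and 9.27% at an unadjusted p under 0.05). EGR1 changed by 0.36 ± 0.27 with BMP4 and ETV5 by -0.24 ± 0.30, neither past the limit (limma adjusted p of 0.716 and 0.841). The second ETV5 probe went the other way (limma adjusted p = 0.794 over all probes). For the difference between the BMP4 answers of both cultures, limma called 0 of 7 members, against 4.23% of all genes and 15.5% at an unadjusted p under 0.05. The widest values there, on the tested probe of each gene, were 1.14 ± 0.54 for ETV5 (limma adjusted p = 0.335), -1.10 ± 0.65 for SPRY4 (0.461) and -1.06 ± 0.54 for DUSP4 (0.376). Other probes differed in size. With BMP4 the second ETV5 probe changed by 0.81 ± 0.44 in co-cultures and 0.39 ± 0.39 in PA6. The other detected DUSP4 probes changed by -0.20 ± 0.21 and -0.19 ± 0.28 in co-cultures, against 1.25 ± 0.54 and 1.57 ± 0.53 in PA6. Without PA6 BMP4 replicate 2 the SPRY4 value was -1.75 and became a call (limma adjusted p = 0.0257).

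Adipocyte markers rose and fell over the same PA6 arrays. The mean of 5 tested markers was 8.36 to 11.79 without factors, 7.06 to 9.29 with FGF2 and 11.18 to 14.48 with BMP4, and all 5 were detected on each BMP4 array. ADIPOQ, which encodes the fat cell hormone adiponectin, read 15.38, 12.02 and 13.87 in the BMP4 replicates, the order seen for SPRY4 and DUSP4. It also read 12.69 in -GFs replicate 1, where SPRY4 was not well above background and DUSP4 had its lowest value. Their part in the SPRY4, DUSP4 and ETV4 values was not tested. The genes closest to SPRY4 over 16 arrays by the same likeness rule were D930001I22RIK (r = 0.93), ALAS1, the first enzyme of heme synthesis (0.92), and 2310001A20RIK (0.92). In the 9 PA6 arrays these r were 0.97, 0.96 and 0.94, and in the 7 co-culture arrays 0.42, 0.50 and 0.65.

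**Figure D3:**
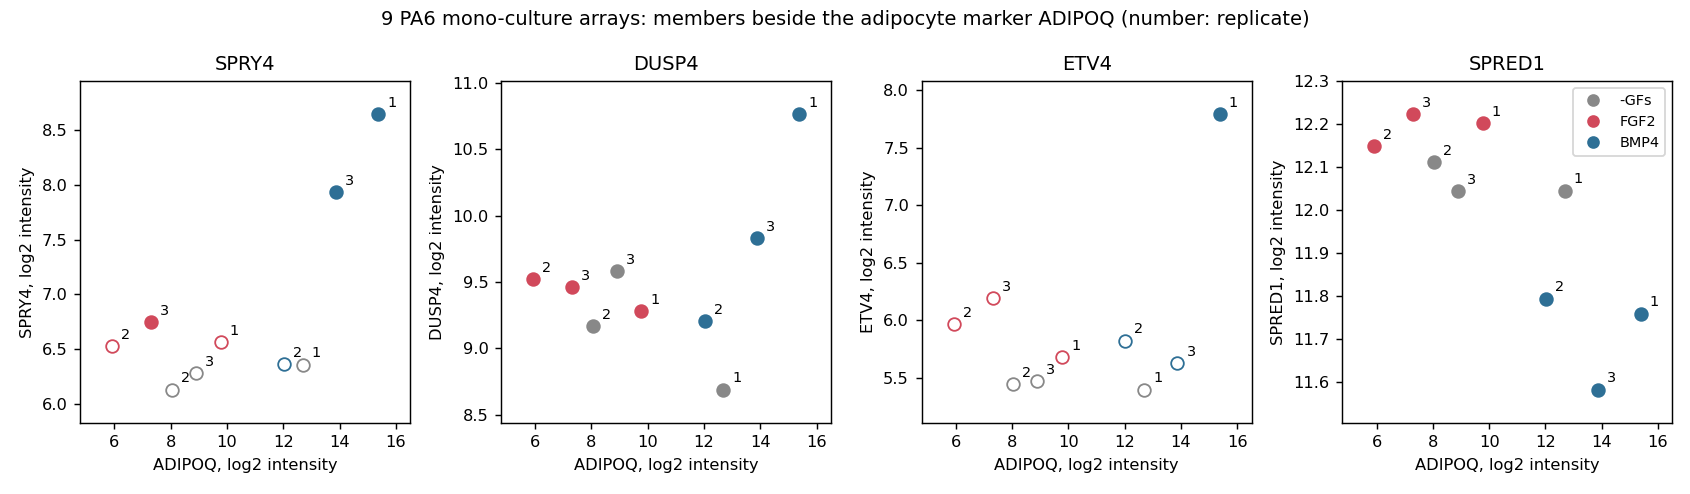
Log2 intensity of SPRY4, DUSP4, ETV4 and SPRED1 (vertical axes) against that of ADIPOQ (horizontal axes) on the 9 PA6 arrays. Colour gives the condition, numbers the replicate, and open points are arrays where the member was not well above background. BMP4 replicate 1 is highest for ADIPOQ, SPRY4, DUSP4 and ETV4, and the 3 BMP4 arrays are lowest for SPRED1.

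The largest contrasts among the members were between co-cultures and PA6 alone. Without factors 5 of 7 members were called, where 44.1% of all genes were called. They were 4 genes higher in co-cultures (22.3% of all genes) and 1 lower (21.8%). ETV4, 1 of the 4 and called in each condition, was tested only through its co-culture arrays, a limit on each of these counts. With FGF2 6 of 7 were called (46.4% of all genes) and with BMP4 4 of 7 (42.4%). A share of this size among all genes sets the scale for these counts. Groups did not overlap for 4 members higher and 2 lower in each of the 3 conditions. Of all genes 38.4% were higher and 36.6% lower in this sense without factors, 35.1% and 36% with FGF2, and 38.2% and 37.2% with BMP4.

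DUSP6 stood at 11.71 to 12.71 in the 7 co-cultures and at 8.65 to 10.17 in the 9 PA6 arrays. It was 6.68-fold higher in co-cultures without factors (log2 2.74 ± 0.30, limma adjusted p = 2.78e-06), 6.06-fold with FGF2 (2.60 ± 0.27) and 7.17-fold with BMP4 (2.84 ± 0.30). The other DUSP6 probes were higher too, by 2.36 ± 0.48 and 1.22 ± 0.52 without factors. DUSP4 was higher by 2.53 ± 0.38 without factors (limma adjusted p = 6.09e-05), by 1.86 ± 0.34 with FGF2 and by 1.47 ± 0.38 with BMP4. With BMP4 the other detected DUSP4 probes gave 0.56 ± 0.50 and 0.28 ± 0.51, which did not pass (limma adjusted p of 0.353 and 0.663 over all probes), and the mean of the probes gave 0.77 (0.131).

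ETV5 was 5.93-fold higher in co-cultures without factors (2.57 ± 0.38, limma adjusted p = 5.25e-05), 16-fold with FGF2 (4.0 ± 0.34, 2.29e-07) and 13.1-fold with BMP4 (3.71 ± 0.38, 2.15e-06). In PA6 its probe was detected on 2 of 3 arrays without factors and on 1 of 3 with BMP4. The second probe gave 5.78-fold without factors, 16.8-fold with FGF2 and, with BMP4, a smaller 7.70-fold (2.94 ± 0.46). ETV4 averaged 8.91 in co-cultures without factors and 5.44 in PA6, where no array was well above background. It was at least 4.65-fold higher without factors (limma adjusted p = 4.05e-05) and at least 7.62-fold with FGF2, where the means were 9.73 and 5.95 (5.10e-06). With BMP4, where 1 PA6 array had detected it, the difference was 3.21 ± 0.50 (limma adjusted p = 8.91e-05). Since ETV4 entered the tests only through co-cultures, where it is higher, its p-values in these contrasts are not separate support.

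EGR1 and SPRED1 were the members with lower levels in co-cultures. EGR1, an immediate early zinc finger factor, read 9.83 to 10.83 in co-cultures and 10.79 to 11.95 in PA6. It was lower by -1.08 ± 0.30 without factors (limma adjusted p = 0.00631) and by -1.15 ± 0.27 with FGF2 (0.00177). With BMP4 the value of -0.80 ± 0.30 (0.0328) was under the fold limit. Without co-culture -GFs replicate 2 the first value was -0.78, without PA6 -GFs replicate 3 it was -0.79, and without co-culture FGF2 replicate 2 the second was -0.96, each under the fold limit. The first value was also under it with no background correction (-0.98) and with array weights (-0.93). SPRED1 read 10.80 to 11.42 in co-cultures and 11.58 to 12.22 in PA6, with no overlap. Its differences were -0.73 ± 0.18 without factors, -1.01 ± 0.16 with FGF2 and -0.68 ± 0.18 with BMP4 (limma adjusted p of 0.00241, 6.26e-05 and 0.00424), of which the second was past the fold limit. Without co-culture FGF2 replicate 2 that value was -0.82, and without PA6 FGF2 replicate 3 it was -1.0, neither past the limit, nor was -0.96 with no background correction. SPRY4 gave 0.13 ± 0.41 with FGF2 and -0.98 ± 0.46 with BMP4 (limma adjusted p of 0.797 and 0.0818), and the second became a call without co-culture BMP4 replicate 2 (-1.35, limma adjusted p = 0.0670) and without PA6 BMP4 replicate 2 (-1.62, 0.000245).

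**Figure D4:**
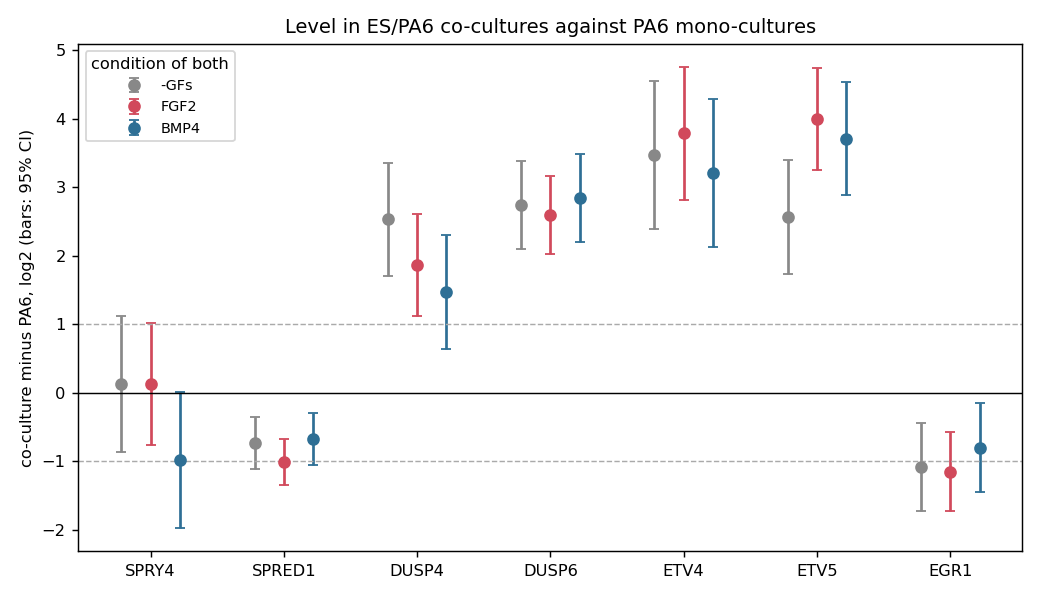
Difference of log2 intensity, co-cultures minus PA6 alone (vertical axis) for each tested member (horizontal axis), without factors, with FGF2 and with BMP4. Bars are 95% confidence intervals of limma and dashed lines mark the fold limit. DUSP4, DUSP6, ETV4 and ETV5 are above 0 and SPRED1 and EGR1 below 0 in each condition. The ETV4 values without factors and with FGF2 are against PA6 arrays at background, and with BMP4 1 of 3 PA6 arrays had detected it.

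Probes of 1 gene did not always give the same size or direction of change. DUSP4 had 4 probes, of which 1 was not well above background on any array, DUSP6 had 3 and ETV5 had 2. The order of culture kinds was the same on every detected probe of these genes without factors and with FGF2. The genes whose pattern was most like DUSP6 over 16 arrays were NHEJ1, a DNA end-joining factor (r = 0.81), GIMAP9, a GTPase of an immune family (0.80), and PSMA5, a proteasome subunit (0.80).

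**Figure D5:**
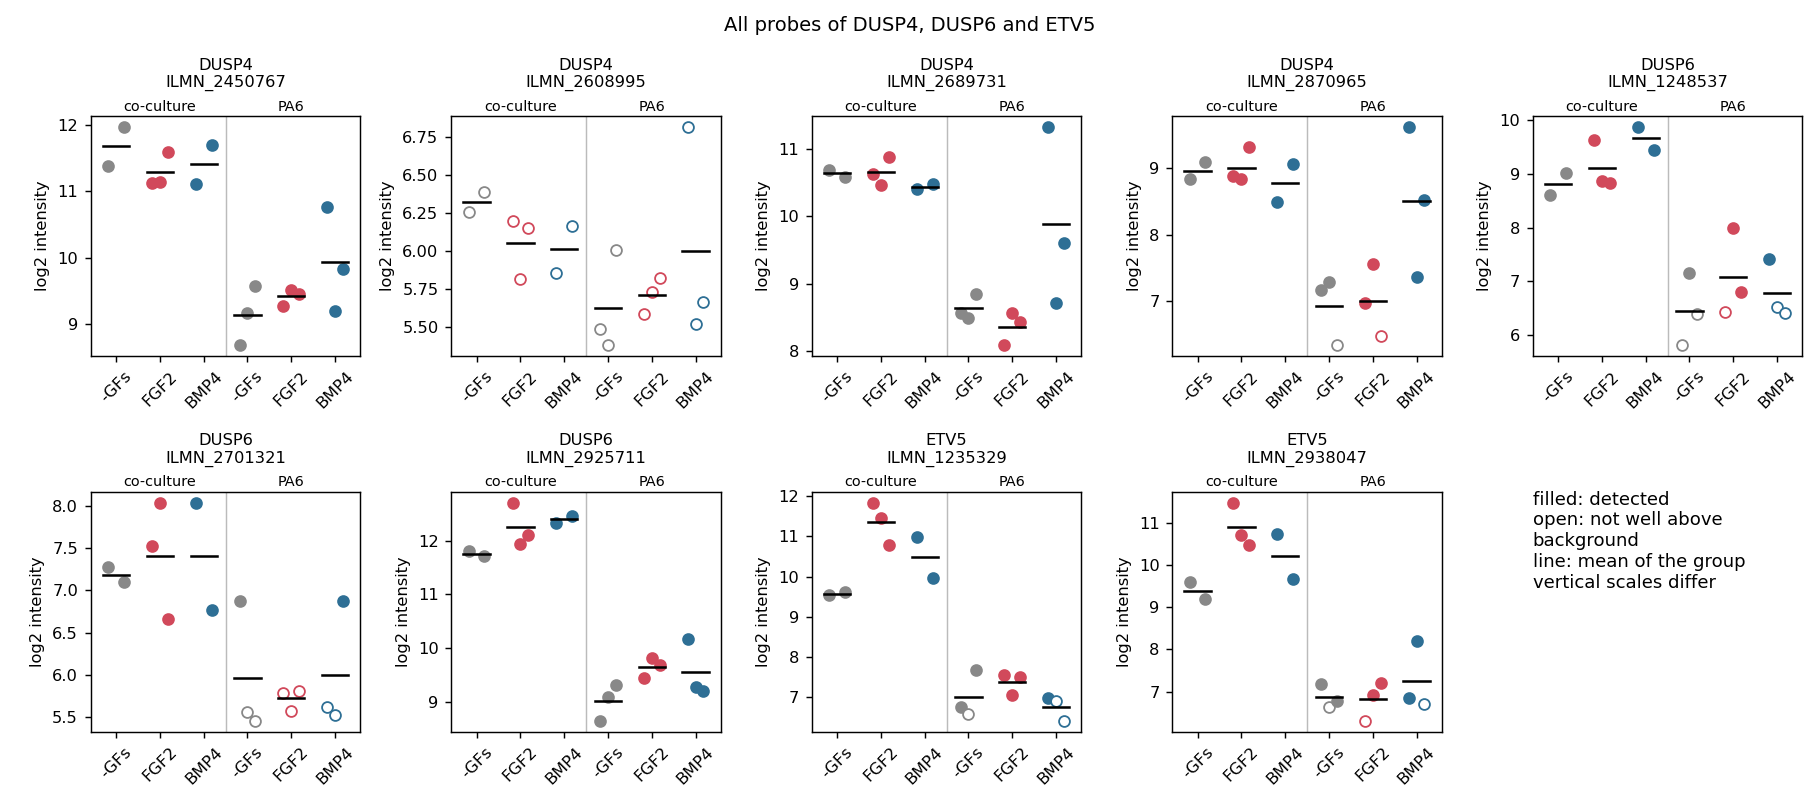
Log2 intensity (vertical axes) of each probe of DUSP4, DUSP6 and ETV5 in the 6 groups (horizontal axes), 1 point per array, open where not well above background, with lines at group means. Both ETV5 probes are highest in co-cultures with FGF2, and 3 of the 4 DUSP4 probes have a detected PA6 value that is highest in BMP4 replicate 1.

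The promoters of 3 members are shown as the stretch of 250 bases before the RefSeq start (assembly GRCm38.p6), for ETV5 and DUSP6, which were higher in co-cultures, and SPRED1, which was lower. They are written 5′ to 3′ in the direction of the gene, with GC boxes (GGGCGG, either strand) in capitals.
ETV5 (chr16:22439571-22439820, minus strand): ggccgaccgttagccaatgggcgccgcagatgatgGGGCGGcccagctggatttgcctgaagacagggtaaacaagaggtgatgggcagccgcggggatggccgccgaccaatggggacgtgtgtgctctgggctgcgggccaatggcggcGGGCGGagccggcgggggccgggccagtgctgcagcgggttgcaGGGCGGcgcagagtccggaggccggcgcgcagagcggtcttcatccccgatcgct
DUSP6 (chr10:99262981-99263230, plus strand): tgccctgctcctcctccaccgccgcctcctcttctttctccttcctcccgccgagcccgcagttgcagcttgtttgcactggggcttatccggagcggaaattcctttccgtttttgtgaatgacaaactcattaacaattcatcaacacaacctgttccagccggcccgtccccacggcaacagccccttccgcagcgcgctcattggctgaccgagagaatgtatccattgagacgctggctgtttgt
SPRED1 (chr2:117120821-117121070, plus strand): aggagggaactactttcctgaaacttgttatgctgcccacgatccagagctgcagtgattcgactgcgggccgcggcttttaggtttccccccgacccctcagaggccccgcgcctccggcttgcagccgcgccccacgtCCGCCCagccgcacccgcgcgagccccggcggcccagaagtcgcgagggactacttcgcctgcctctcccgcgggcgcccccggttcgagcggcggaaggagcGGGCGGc
Windows were given for 5 of the 10 genes in the table used. A further ETV5 window belongs to a second RefSeq start (chr16:22438369-22438618, minus strand), is not printed and held no GC box. The printed ETV5 window held 3 GC boxes, SPRED1 held 2 and DUSP6 none, where 32.7% of 32851 mouse windows of this length held at least 1. None of the 3, nor the second ETV5 window, held the letters of an ETS core (CCGGAA, in 12% of windows), an AP-1 site (TGANTCA, 6.75%), a cyclic AMP element (TGACGTCA, 1.55%) or a CArG box (1.47%), on either strand. None of these motifs overlaps another in the windows shown, and no match says only that these letters are not in this stretch.

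Other genes of the pathway were read from lists of family relatives, other ERK targets, pathway components and FGF receptors. In co-cultures with FGF2, where 7.42% of all genes were called, 1 of 15 tested relatives was called, FOS, an immediate early AP-1 component, higher by 1.05 ± 0.23 (limma adjusted p = 0.0469). Of 17 other targets 1 was called, HBEGF, a ligand of the EGF receptor, higher by 1.33 ± 0.23 (0.0223). Of 22 pathway components 2 were called, both higher, namely the adaptor GAB1 by 1.07 ± 0.23 (0.0418) and the ERK-activated kinase RPS6KA1 by 1.23 ± 0.28 (0.0481). Of 3 tested receptors 2 were called lower, FGFR2 by -1.54 ± 0.27 (0.0223) and FGFR3 by -2.10 ± 0.33 (0.0164), where FGFR3 was detected on 1 of the 3 FGF2 arrays. The medians of the relatives, targets and components were -0.02, -0.02 and -0.08, close to -0.06 over all genes tested. Among the 7 fits that left out 1 array, the call was lost in 3 for FOS and RPS6KA1 and in 4 for GAB1. It was lost without -GFs replicate 1 for HBEGF (0.98), FGFR2 (-1.40) and FGFR3, and in 5 of 13 other settings for FOS.

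With BMP4 in co-cultures, where 3.75% of all genes were called, 3 of 15 relatives were called, DUSP8 lower by -1.74 ± 0.40 (limma adjusted p = 0.0885) and DUSP14 and FOS higher by 1.5 ± 0.33 (0.0784) and 1.23 ± 0.26 (0.0682). The stress factor ATF3 was called higher (0.0533), with both BMP4 arrays and neither control well above background. FGFR3 was lower by -1.74 ± 0.36 (limma adjusted p = 0.0641), and no component was called. When each of the 7 arrays was left out, the call was lost in 6 fits for DUSP8, in 5 for DUSP14, in 4 for FOS and ATF3 and in 3 for FGFR3, and that of FOS also in 8 of 13 other settings. In PA6 no gene of the 4 lists was called with FGF2 or with BMP4 against controls. Against PA6 without factors, co-cultures had 3 relatives higher and 6 lower of 15, 3 targets higher and 4 lower of 17 and 5 components higher and 5 lower of 22, where 44.1% of all genes were called. Among them FOSL2 and JUNB, AP-1 components, were lower by -2.47 ± 0.32 and -1.53 ± 0.24 (limma adjusted p of 1.36e-05 and 9.37e-05). FLRT3, a membrane protein tied to FGF receptors, was called higher, with all co-cultures and no PA6 array well above background. FGFR1 was lower by -3.23 ± 0.37 (limma adjusted p = 4.58e-06), with 1 of the 2 co-culture arrays above background, and FGFR3 was called higher while no PA6 array was well above background for it.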

How the data were processed

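For each probe and array the deposited table holds, per the file headers, an average bead intensity and a detection p-value. The authors read the scans with GenomeStudio 2011.01, and these intensities were not normalized between arrays. The table carries no coordinates or genome build.

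Here normexp with the detection p-values removed background, quantile normalization made the 16 arrays alike, and log2 was taken with an offset of 16 (neqc, limma 3.58.1, R 4.3.3). A probe was kept if some group had all its arrays under a detection p of 0.05, giving 20880 probes. The probe of highest mean stood for its gene, giving 14829 genes. Models within a culture kind used its 7 or 9 arrays, and others all 16, with moderated variances of limma. Calls needed an adjusted p under 0.1 and a log2 fold change over 1, as in the study's methods. Errors are SD between arrays or SE of a fitted change. Where a group had no array above background, its mean was replaced by a detection level per array (the higher of the lowest detected signal and the probe's own), and the fold is given as a lower limit ("at least"). Precision is limited by the number of arrays, and bright probes compress fold changes.

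The members and lists were chosen with earlier results of these data known. Named are all members and, of 4 pathway lists, genes that were called, of which some are described. Some models were tried on simulated data with independent noise. These were each factor against -GFs, the difference of FGF2 effects and the contrast of cultures without factors. Motifs were searched in RefSeq promoter windows. Alternatives covered normalization, background, offset, filters, probe rule, thresholds, variance prior, array weights, replicate blocks and leaving out each array.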

Additional observations from a re-analysis of the deposited data

Results flagged for a closer look

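None of the tested members had an effect of FGF2 or BMP4 that limma called different between co-cultures and PA6. By the interaction test over 16 arrays, FGF2 gave such a call for 3 of 15 family relatives, 3 of 17 other targets, 2 of 22 components and 1 of 3 receptors, where 7.9% of all genes were called. BMP4 gave it for 1 of 15, 1 of 17, 0 of 22 and 1 of 3, where 4.23% of all genes were called and 15.5% were under an unadjusted p of 0.05. Values are the co-culture change minus the PA6 change on the log2 scale.

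For FGF2 the difference was positive for 4 genes. GAB1, a docking adaptor, gave 1.41 ± 0.27 (limma adjusted p = 0.00730), from 1.07 in co-cultures and -0.34 in PA6. RPS6KA1, a kinase activated by ERK, gave 1.64 ± 0.52 (limma adjusted p = 0.0798), from 1.23 and -0.42. DUSP14, a phosphatase, gave 1.46 ± 0.45 (limma adjusted p = 0.0736), from 0.83 and -0.63. HBEGF gave 1.25 ± 0.38 (limma adjusted p = 0.0688), from 1.33 and 0.07.

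The difference was negative for 5 genes. EGR2, a relative of EGR1, gave -2.24 ± 0.52 (limma adjusted p = 0.0207), from -0.97 in co-cultures and 1.27 in PA6. JUN, an AP-1 component, gave -1.59 ± 0.44 (limma adjusted p = 0.0469), from -0.39 and 1.21, and cyclin D1 (CCND1) gave -1.51 ± 0.32 (0.0139), from -0.53 and 0.98. SPRY3 gave -1.16 ± 0.25 (limma adjusted p = 0.0162), from -0.81 and 0.35. FGFR3 gave -2.01 ± 0.42 (limma adjusted p = 0.0127), a value set by the co-cultures (-2.10), since no PA6 array was well above background. EGR1 itself gave -0.07 ± 0.40 in the same test, and neither EGR2 nor JUN was called within PA6.

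For BMP4 the difference was 1.80 ± 0.48 for DUSP14 (limma adjusted p = 0.0624), from 1.5 and -0.31, and 2.11 ± 0.54 for FLRT2, a membrane protein of the FLRT family (0.0529), from 1.08 and -1.03. For FGFR3 it was -2.09 ± 0.44 (0.0224), from -1.74 in co-cultures, with the same limit in PA6. Of the 16 fits that left out 1 array, the FGF2 call was lost in 8 for DUSP14, 7 for RPS6KA1, 6 for HBEGF and 2 for JUN, and the BMP4 call in 8 for DUSP14, 5 for FLRT2 and 1 for FGFR3.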

How the results depend on the processing

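Apart from fits that left out an array, member values kept direction and side of the limit in 716 cases, became calls in 8, lost the call in 4 and turned direction in 8. Those 8 were not called in the reported fit. SPRED1 with FGF2 in co-cultures became 0.00556 with the run of columns in the table as a replicate block, which was chosen after the data had been seen. ETV5 with BMP4 in PA6 became 0.0784 with the mean of probes. The SPRY4 difference of FGF2 effects became 0.0496 with median scaling, 0.00720 with an offset of 50, 0.13 with the replicate number as a block and 0.19 with the run block. With the run block the same difference for EGR1 became 0.00510, and SPRY4 between cultures without factors became -0.0619. The cause was not tested.

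The number of members called for FGF2 in co-cultures was 0 when detection was required on all 16 arrays, since ETV5 was then not tested, and 0 to 1 when arrays were left out. It was 0 to 1 for BMP4 against -GFs and against FGF2 in PA6 and for the difference of BMP4 effects when arrays were left out, 1 without PA6 BMP4 replicate 2. For the difference of FGF2 effects it was 1 with no background correction, with an offset of 50, with the mean of probes and with the number block, and 0 to 1 when arrays were left out. Between culture kinds it was 3 without factors and 2 with BMP4 when detection on all 16 arrays was required, because fewer members were tested, and 7 with BMP4 with no minimum fold.

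Leaving out arrays turned the direction of these uncalled values, with ranges of -0.28 to 0.0345 for SPRED1 with FGF2 in co-cultures, -0.0825 to 0.66 for SPRY4 and -0.57 to 0.0247 for DUSP4 with BMP4 in co-cultures, and -0.45 to 0.10 for ETV5 with BMP4 in PA6. For the difference of FGF2 effects they were -0.10 to 0.13 for SPRY4, -0.37 to 0.0446 for DUSP6 and -0.37 to 0.24 for EGR1. For that of BMP4 effects they were -0.0897 to 0.20 for SPRED1, -0.0709 to 0.41 for DUSP6, -0.65 to 0.43 for ETV4 and -0.0207 to 0.59 for EGR1.

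Over all genes the number called moved by over 1.5 times in each comparison under at least 1 setting. For FGF2 in co-cultures 1100 genes became 324 to 1675 under other settings and 395 to 1069 when arrays were left out. With BMP4 there 556 became 32 to 870 and 102 to 547, and between BMP4 and FGF2 214 became 2 to 574 and 39 to 187. In PA6 the counts of 4, 0 and 46 for FGF2, BMP4 and their difference became 1 to 32, 0 to 6 and 2 to 72, and 0 to 17, 0 to 5 and 3 to 42 when arrays were left out. For differences of effects 1172 became 451 to 1627 with FGF2 and 628 became 106 to 764 with BMP4. Between culture kinds 6540, 6874 and 6283 became 3480 to 10123, 3575 to 10860 and 3236 to 9981. Lists' calls lost their side of the limit in 141 cases and kept it in 1152.

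The labels describe wells of all conditions within a biological replicate, but name no number for it, and the reported fits held no block. Deviations of arrays with the same number correlated at 0.07 to 0.20 in PA6 (7 of 9 pairs over 0.1), where all 9 were above 0. PA6 pairs of different number were all below 0, so PA6 arrays went together by number. In co-cultures the same number gave -0.20 to 0.28 (1 of 6), while the same run of columns gave 0.10 to 0.28 (4 of 5). With the number block ETV5 rose by 2.08 with FGF2 in co-cultures (limma adjusted p = 0.0578), and the block changed the call of a member only for the difference of FGF2 effects in ETV5, 1.72 (0.0675). With the run block ETV5 rose by 1.66 (limma adjusted p = 0.0574). Over all genes the number block gave 258 calls for BMP4 in co-cultures and 11 between BMP4 and FGF2. It was not run between culture kinds, where numbers do not cross. Median scaling moved the median of all genes with FGF2 in co-cultures from -0.06 to -0.21, and ETV5 was then 1.53, still called. Dim probes limit ETV4, ETV5 and SPRY4 in PA6.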
